A study of Mus musculus with 12 samples.

Results

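The genes described here encode the protein machinery of oxidative phosphorylation in mouse liver. They were chosen by name alone: every non-control probe whose gene name began with Nduf, Uqcr, Atp5, Cox4, Cox5, Cox6, Cox7 or Cox8, or was Sdha, Sdhb, Sdhc or Sdhd. The rule took 113 of 41174 probes, and these stood for 82 of 27822 genes and unnamed probes. By the complex each product belongs to, 35 genes fell in complex I, 4 in complex II, 7 in complex III, 18 in complex IV and 15 in complex V. The other 3 genes carried such a name in the array design but encode no subunit. Cox4nb is the gene Emc8, which makes part of an endoplasmic reticulum membrane complex. Atp5s is Dmac2l, once named as a coupling factor of ATP synthase, and Ndufaf1 encodes an assembly factor of complex I.

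RNA was taken from whole liver of male C57BL/6 mice aged 8 to 10 weeks and hybridised to 1-colour arrays, with 1 liver sample on each of 12 arrays. The 4 groups, with 3 samples each, were from HESKOL mice given dexamethasone, wild-type mice given dexamethasone, untreated HESKOL mice and untreated wild-type mice. Dexamethasone, a synthetic glucocorticoid, was injected into the peritoneum at 1 mg/kg, and liver was taken 6 hours later. Mice of all 4 groups, the untreated ones included, had been adrenalectomized and so lacked their own adrenal glucocorticoids, and no vehicle injection is described for the untreated mice. The labels call HESKOL a knockout and give neither the promoter or Cre that made it nor the part of a gene that was removed, and the series title names Hes1, a transcriptional repressor.

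In the respiratory chain, complex I takes electrons from NADH and complex II takes them from succinate, and both pass them through ubiquinone to complex III. Cytochrome c carries them on to complex IV, which reduces oxygen, and complex V uses the proton gradient built along the way to make ATP. Hepatocytes hold many mitochondria and use this ATP for glucose output, urea synthesis and protein secretion. Most subunits are encoded in the nucleus, as all members here are, and the subunits encoded by mitochondrial DNA were not analysed here.

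The array files give a probe of 60 bases for each measurement. Probes of 3 members are shown because the results below turn on them. Sdhb, the iron-sulfur subunit of complex II, varied from array to array as most subunits did, and Sdha, its flavoprotein partner, did not. Cox7a1, the heart and muscle form of subunit 7a of complex IV, varied with the others, and its change with dexamethasone in HESKOL liver had the smallest adjusted p of the members relative to the subunit median, without passing. The Sdhb probe is placed at chr4:140345040-140349607 of the mm7 build, plus strand, a span longer than the probe itself. The Sdha probe is the dimmer of 2 and is placed at chr13:71261221-71261280 of mm7, minus strand. The design gives no position for the Cox7a1 probe.
Sdhb: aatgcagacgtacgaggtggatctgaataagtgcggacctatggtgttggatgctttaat
Sdha: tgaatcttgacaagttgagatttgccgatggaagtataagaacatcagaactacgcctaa
Cox7a1: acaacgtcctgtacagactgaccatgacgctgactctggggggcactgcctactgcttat

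Promoters of many subunits are known to carry sites for the factors NRF1, GABP (an ETS factor) and YY1. RefSeq promoter stretches of the GRCm38.p6 build, from 250 bases before to 50 after the gene start, were matched for 67 of the 82 members, in 72 stretches, and letters were searched on both strands. The palindromic NRF1 motif was present in 5 of the 72 stretches (6.94%), those of Atp5g2, Atp5k, Cox6a1, Ndufa11 and Uqcrc1, and in 0.971% of all 32851 promoter stretches. The ETS motif CCGGAAG was present in 17 (23.6%) and in 8.86% of all stretches, and the YY1 motif AAGATGGC in 10 (13.9%) and in 2.75% of all. TNAAGGTCA, the motif of the estrogen-related receptors, was present in 3 (4.17%), and in 1.28% of all stretches. The palindromic glucocorticoid response element was in 0 of the 72 and in 0.475% of all stretches, which says only that these letters are not in these windows. The bases upstream of the start are printed for Atp5k and Cox6a1, both NRF1 carriers, with the NRF1 and ETS motifs that lie in them in capitals. The ETS motif of Atp5k lies past the start and so outside the printed bases. Both stretches lie on the minus strand, at chr5:108434400-108434649 for Atp5k and chr5:115348959-115349208 for Cox6a1.
Atp5k: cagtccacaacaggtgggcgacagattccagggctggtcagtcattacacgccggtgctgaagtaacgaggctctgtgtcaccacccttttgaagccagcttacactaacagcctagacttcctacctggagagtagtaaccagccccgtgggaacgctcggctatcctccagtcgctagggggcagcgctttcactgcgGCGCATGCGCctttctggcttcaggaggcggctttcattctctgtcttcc
Cox6a1: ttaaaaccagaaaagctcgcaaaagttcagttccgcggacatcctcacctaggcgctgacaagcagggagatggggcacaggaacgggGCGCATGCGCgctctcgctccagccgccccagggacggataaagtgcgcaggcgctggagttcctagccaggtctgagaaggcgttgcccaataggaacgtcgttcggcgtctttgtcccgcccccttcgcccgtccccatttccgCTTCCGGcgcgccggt

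Each level below is the log2 of a probe's signal minus that of its array's 75th percentile, and changes are differences of such levels between groups with their standard error (SE). The share of spots well above background was 62.2% to 72.3%, and the 75th percentile lay between 897 and 1614 intensity units. Hes1 lay between -3.85 and -3.02 in treated HESKOL livers and between -2.92 and -1.16 in treated wild-type livers, and between -3.09 and -2.40 in untreated HESKOL livers and between -1.90 and -1.22 in untreated wild-type livers. The groups of each treatment did not overlap, but neither difference passed (-1.10, limma adjusted p = 0.249, and -1.12, limma adjusted p = 0.9999), and whether the probe lies in the removed part is not given. Of the hepatocyte markers, 8 of 8 with a probe were well above background on all 12 arrays, and the muscle markers Ckm and Mb were on 0. The arrays lay on 3 slides, and none held treated and untreated livers of 1 genotype. Over all genes, wild-type dexamethasone replicate 1 stood apart from the other 2 arrays of its group, and results are given with and without it where it moved them. In such bulk RNA, fewer cells of a type and less RNA per cell cannot be told apart.

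Of the 82 genes, 79 were well above background on all 12 arrays. Cox8b, the muscle form of subunit 8 of complex IV, was on 9 arrays: all 3 of the treated HESKOL group and 2 in each of the other groups. Cox4i2, the form of subunit 4 known from lung, was on 5 arrays and Cox8c, known from testis, on 0, and these 2 genes were not tested. None of the 113 probes was saturated on any array. The remaining 80 genes, 77 of them subunits, were tested together with all 18728 genes that passed the same filter.

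With all arrays and the main scaling, 0 of the 80 genes passed the test in each of the 5 comparisons, which does not show that they were unchanged. Under other settings Emc8 and Dmac2l passed, as given below. In HESKOL liver, 0 of 80 members passed the test after dexamethasone (limma, adjusted p under 0.05), where 7.87% of all tested genes did, and 1 of the 80 had an unadjusted p under 0.05, where 24.6% of all genes did. In wild-type liver 0 of 80 passed, against 0.192% of all genes, and 1 had an unadjusted p under 0.05, against 11.8%. Between HESKOL and wild-type liver, 0 of 80 passed after treatment (1.14% of all genes; 2 members at an unadjusted p under 0.05, against 15.7%) and 0 of 80 without it (0% of all genes; 0 members, against 1.59%). For the difference between the dexamethasone effects of the 2 genotypes, 0 of 80 passed (0.016% of all genes), with 0 at an unadjusted p under 0.05, against 6.64%. The smallest adjusted p over the 80 members was 0.105 in treated HESKOL liver, 0.385 in treated wild-type liver and 0.212 between the treated genotypes.

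Most members had changes above 0 on this scale. Their median log2 change with dexamethasone was 0.26 in HESKOL liver, with 75 of 80 above 0, while all tested genes had a median of -0.003, with 49.8% above 0. In wild-type liver the median was 0.14 with 68 of 80 above 0, beside -0.020 and 47.9% over all genes. Between treated HESKOL and treated wild-type livers it was 0.23 with 72 of 80 above 0 (all genes 0.038 and 53.4%), and between the untreated genotypes 0.079 with 69 of 80 above 0 (all genes 0.044 and 58.3%). Members moved together from array to array, so these counts are a description. Members were also far brighter than the median gene. The 95th percentile of all tested genes read 5.04, 5.42 and 5.24 in treated and 5.02, 4.77 and 5.30 in untreated HESKOL livers. It read 5.14, 5.21 and 4.97 in treated and 4.77, 4.93 and 5.30 in untreated wild-type livers. Whether members changed more than other genes of like brightness was not tested. The medians also rested on single arrays: without untreated HESKOL replicate 2 the HESKOL median was -0.0060, and without untreated wild-type replicate 1 or treated wild-type replicate 2 the wild-type median was -0.10 or -0.015. Without untreated wild-type replicate 1 or untreated HESKOL replicate 3 the untreated genotype median was -0.14 or -0.20. In that comparison 37 of 80 members lay above 0 with scaling to the array median and 38 of 80 on the unscaled deposited table.

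That common movement was wide within groups. The median level of the 77 subunits was 5.25, 6.13 and 6.04 in the 3 treated HESKOL livers and 5.51, 5.82 and 5.14 in the treated wild-type livers. It was 5.51, 4.98 and 6.15 in untreated HESKOL livers and 4.95, 5.23 and 6.06 in untreated wild-type livers. All 4 groups overlapped. Group means were 5.81 ± 0.48, 5.49 ± 0.34, 5.54 ± 0.59 and 5.42 ± 0.58 (SD, n = 3 each) in treated HESKOL, treated wild-type, untreated HESKOL and untreated wild-type liver. The widest gap between group means was 0.39. The range of single arrays within a group ran from 0.68 in treated wild-type to 1.17 in untreated HESKOL liver, but means of 3 arrays vary less than single arrays.

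**Figure D1:**
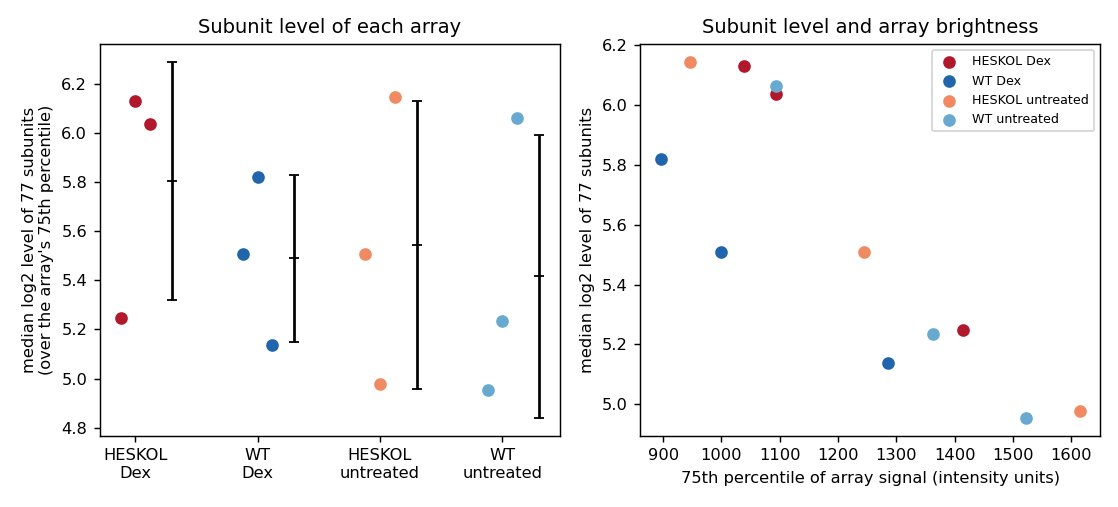
Left, the median log2 level of the 77 tested subunits on each array (points) with group mean and SD (bars, n = 3). Right, the same medians against the 75th percentile of each array's signal, in intensity units. All groups overlap within the range from 4.95 to 6.15, and the 5 brightest arrays have the lowest 5 medians, in part because the 75th percentile is subtracted from each level.

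Dimmer arrays had higher subunit levels, a relation that is partly built in, because the 75th percentile is subtracted from each level. The array with the highest 75th percentile, untreated HESKOL replicate 2 at 1614 units, had a subunit median of 4.98, and untreated HESKOL replicate 3, at 947 units, had 6.15. Before scaling, the log2 subunit medians spanned 15.47 to 16.16 over the 12 arrays, a range of 0.69, against 1.19 after scaling to the 75th percentile. Unscaled, they were 15.72, 16.15 and 16.13 in treated HESKOL livers, against 15.47, 15.63 and 15.47 in treated wild-type livers, so these groups did not overlap on that scale. The part of array brightness in the members' changes was not tested.

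Deviations from the group mean were shared by nearly all subunits. For each gene, the 12 deviations were set against the median deviation of the other subunits: Pearson's r had a median of 0.979 over the 77 subunits and exceeded 0.8 in 71 of them, where 15.6% of all tested genes exceeded 0.8 against the subunit median. The 12 points share scaling, labelling and array, so r describes these arrays only. The subunits were also bright, with a median rank by signal between 95.5% and 97.0% over the 12 arrays. Within each group, the upper percentile of all tested genes, given above with the members' changes, ordered the arrays as the subunit median did. Whether the deviation was particular to subunits or shared by other genes of like brightness was not tested. The residual SD of a subunit had a median of 0.47, and 0.14 after the median of the other subunits was subtracted. Array medians by complex, which include differences between groups, spanned 1.30 for complex I, 0.85 for complex II, 0.95 for complex III, 1.75 for complex IV and 1.14 for complex V.

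**Figure D2:**
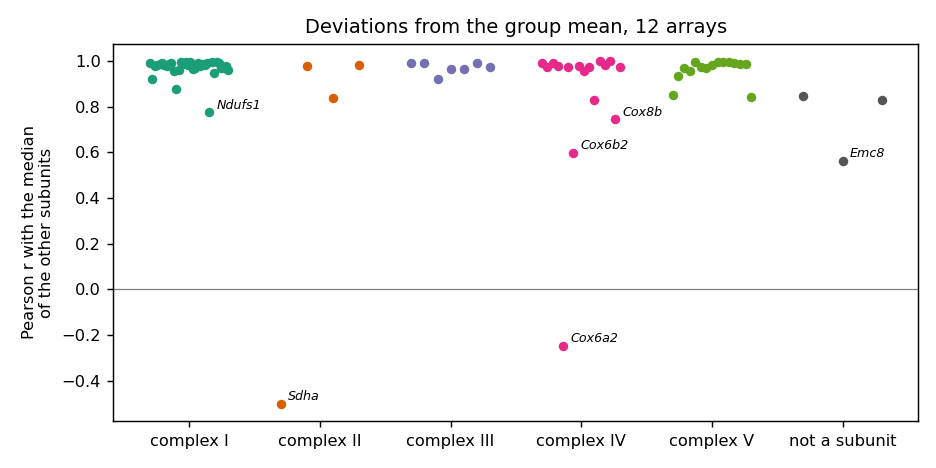
Pearson's r, over 12 arrays, between a gene's deviations from its group means and the median deviation of the other subunits, by complex. Each point is 1 of 79 genes, and genes with r under 0.8 are named. Sdha (-0.50) and Cox6a2 (-0.25) lie far below the other subunits drawn.

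Both Sdha and Cox6a2 had an r below 0. Sdha, which carries the succinate-binding flavin of complex II, had -0.50, and its dimmer probe, whose sequence is given above, had -0.74. Cox6a2, the heart and muscle form of subunit 6a, had -0.25, with weak levels between -4.77 and -2.68. Among genes with several tested probes, 18 of the 27 further probes also exceeded 0.8, but 4 lay below 0. They included both further probes of Atp5b, the catalytic beta subunit of ATP synthase (-0.29 and -0.51), whose brightest probe had 0.93. In the 3 untreated wild-type livers the brightest Atp5b probe read 7.35, 7.69 and 7.86, while the next read 5.92, 6.27 and 5.75. Probes assigned to 1 gene thus did not all share the deviation, and whether they measure the same transcript was not tested.

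Dexamethasone in HESKOL liver was examined complex by complex. Complex I genes had a median log2 change of 0.28, with 34 of 35 above 0, between -0.095 for Ndufs8 and 0.54 for Ndufs7, both iron-sulfur subunits of the arm that carries electrons to ubiquinone. Ndufv1, which binds NADH and FMN, read 5.59, 6.13 and 6.27 in treated HESKOL livers, against 5.78, 5.25 and 6.12 in untreated HESKOL livers. The groups overlapped, and its change was 0.28 (SE 0.30, limma adjusted p = 0.612). Other core subunits had changes of 0.41 for Ndufv2, 0.34 for Ndufs1 and 0.29 for Ndufs3, and 0 of the 3 passed.

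**Figure D3:**
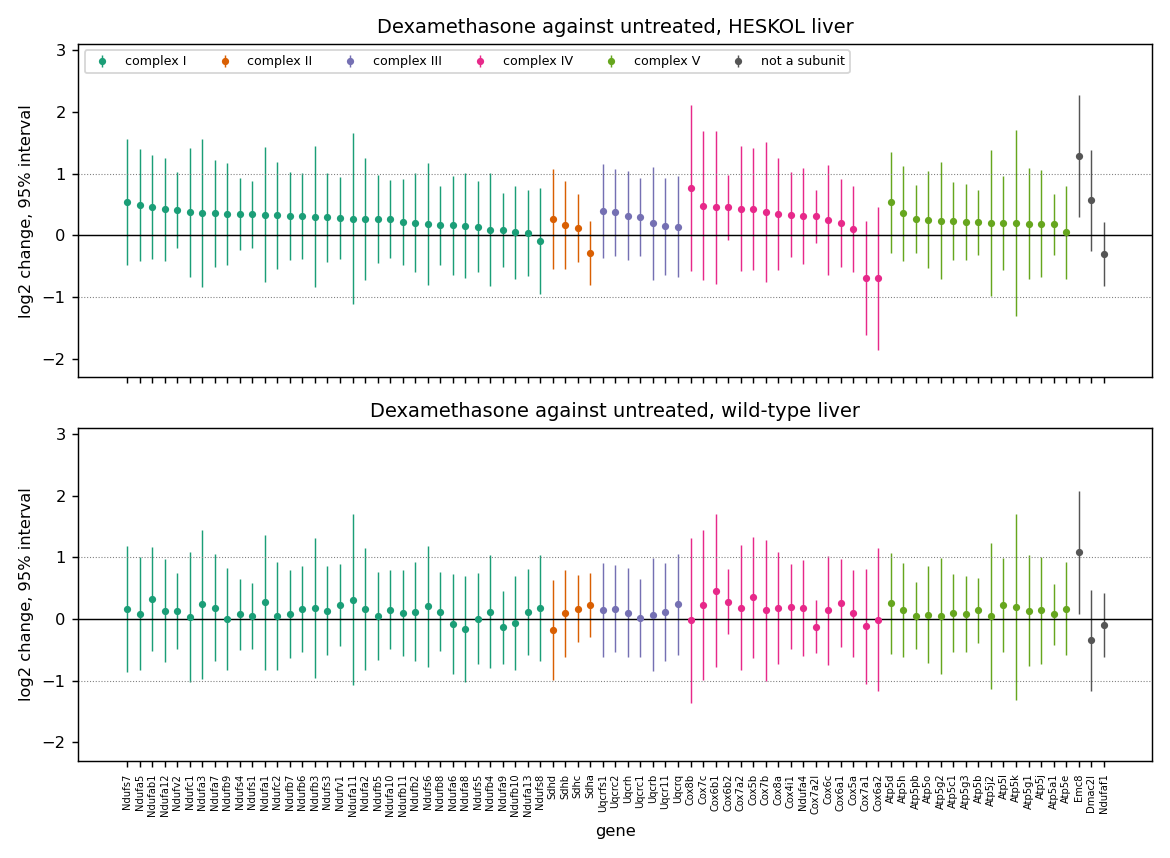
Log2 change with dexamethasone for 79 of the tested members in HESKOL liver (top) and wild-type liver (bottom), by complex, with 95% intervals from limma. Dotted lines mark a 2-fold change. Most points lie slightly above 0 and nearly all intervals cross 0. Those of Emc8, no subunit, are above 0 before adjustment in both genotypes.

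Complex II, the succinate dehydrogenase, is the smallest complex and the one entirely encoded in the nucleus. Sdhb, the iron-sulfur subunit, read 5.51, 5.93 and 6.04 in treated HESKOL livers, against 5.67, 5.16 and 6.15 in untreated HESKOL livers, a change of 0.17 (SE 0.32, limma adjusted p = 0.793). The membrane anchors Sdhc and Sdhd differed by 0.12 and 0.26, and Sdha by -0.29 (SE 0.24, limma adjusted p = 0.498). All 4 genes overlapped between treated and untreated livers.

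The 7 complex III genes had a median change of 0.30, all above 0 and at most 0.39. The core proteins Uqcrc1 and Uqcrc2 differed by 0.30 and 0.38, and Uqcrfs1, the Rieske iron-sulfur protein, by 0.39. The 15 complex V genes had a median of 0.21, again all above 0, between 0.046 for Atp5e and 0.54 for Atp5d, the epsilon and delta subunits of the central stalk. Atp5b read 7.62, 8.02 and 7.96 in treated HESKOL livers, against 7.73, 7.23 and 8.01 in untreated HESKOL livers. Its change was 0.21 (SE 0.24, limma adjusted p = 0.633), and Atp5a1 and Atp5c1, the alpha and gamma subunits, differed by 0.18 and 0.24. The 3 genes of the membrane ring, Atp5g1, Atp5g2 and Atp5g3, which encode the same mature protein, differed by 0.19, 0.24 and 0.22.

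Complex IV held the widest spread of changes, with a median of 0.34 and quartiles of 0.23 and 0.44 over 16 tested genes. Its highest value, 0.77, was that of Cox8b, and its lowest, -0.69, that of the weak Cox6a2, so the ends of the spread rest on dim probes. Cox4i1, Cox5a and Cox5b, present in the liver enzyme, differed by 0.33, 0.10 and 0.42. Subunit pairs with a broad form and a heart and muscle form could be followed separately. Cox6a1, the broad form, differed by 0.20 and Cox6a2 by -0.69 (SE 0.53, limma adjusted p = 0.457). Cox6a2 was weak, at -3.58, -2.93 and -4.77 in treated HESKOL livers, against -3.23, -2.68 and -3.29 in untreated HESKOL livers. Treated replicate 3 was the lowest of these, and the groups overlapped. Cox7a2, the broad form, differed by 0.43 and Cox7a1 by -0.69 (SE 0.42, limma adjusted p = 0.342). Cox8a, the broad form of subunit 8, differed by 0.34, while Cox8b was too close to background in untreated livers for a change to be read. Cox6b1 differed by 0.46 and Cox6b2, the testis form, by 0.45. Of 9 muscle markers 5 were tested, 0 passed in any comparison, and their mean level lay between -4.34 and -4.04 in treated and between -4.01 and -3.94 in untreated HESKOL livers. Their part in the muscle-form values was not tested.

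Cox7a1 read -0.81, 0.17 and 0.30 in treated HESKOL livers, against 0.57, 0.019 and 1.14 in untreated HESKOL livers. The groups overlapped, because untreated replicate 2 read below treated replicates 2 and 3. Relative to the subunit median of each array, a scaling chosen after seeing the data, its change was -0.95 (SE 0.25, limma adjusted p = 0.0786), the smallest adjusted p of any member on that scale. On it 0 of 80 members passed in any comparison, against 1.86% of all tested genes here, 0.0214% for dexamethasone in wild-type liver and 0.203% between the treated genotypes. On the main scale its change was -0.69, and with slide as a block it was 0.072 (SE 0.81), where the members had a median of 0.61.

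In wild-type liver the median changes were 0.12 for complex I, 0.13 for complex II, 0.11 for complex III, 0.18 for complex IV and 0.14 for complex V, and the subunit changes ran from -0.18 for Sdhd to 0.46 for Cox6b1. Ndufab1, the acyl carrier protein of complex I, had 0.32 (SE 0.38, limma adjusted p = 0.798). Ndufv1 read 5.83, 6.13 and 5.66 in treated wild-type livers, against 5.27, 5.55 and 6.13 in untreated wild-type livers, a change of 0.22 (SE 0.30, limma adjusted p = 0.829). Atp5b read 7.75, 7.85 and 7.72, against 7.35, 7.69 and 7.86 in untreated wild-type livers, a change of 0.14 (SE 0.24, limma adjusted p = 0.872). Both genes overlapped between the groups. Without wild-type dexamethasone replicate 1 the median change of the members was 0.15.

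On the brightest probe of each gene, few members had arrays that did not overlap between treated and untreated livers. In HESKOL liver all 3 treated arrays lay above all 3 untreated ones for 2 of 80 members, Cox8b and Emc8, against 15.5% of all tested genes, and below them for 0 members, against 18.7%. Cox8b was tested only because all 3 treated HESKOL arrays were well above background, and 1 of its 3 untreated HESKOL arrays was not. In wild-type liver this held upward for 1 member, Cox6b2, against 6.12%, and downward for 0, against 5.97%.

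How large a change these arrays could have missed is given by the 95% intervals. In HESKOL liver 32 of 80 members had an interval lying wholly within a 2-fold change either way, and 49 of 80 in wild-type liver. After quantile normalization these counts were 65 and 69, and the median SE of the members was 0.24 instead of 0.36. For the other members a 2-fold change was not excluded by the interval. With quantile normalization the median change of the members was 0.054 in HESKOL liver, with 47 above 0 and 33 below, and -0.014 in wild-type liver, with 38 above 0 and 42 below. The size of the median change depended on the scaling, and in wild-type liver its sign did too.

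**Figure D4:**
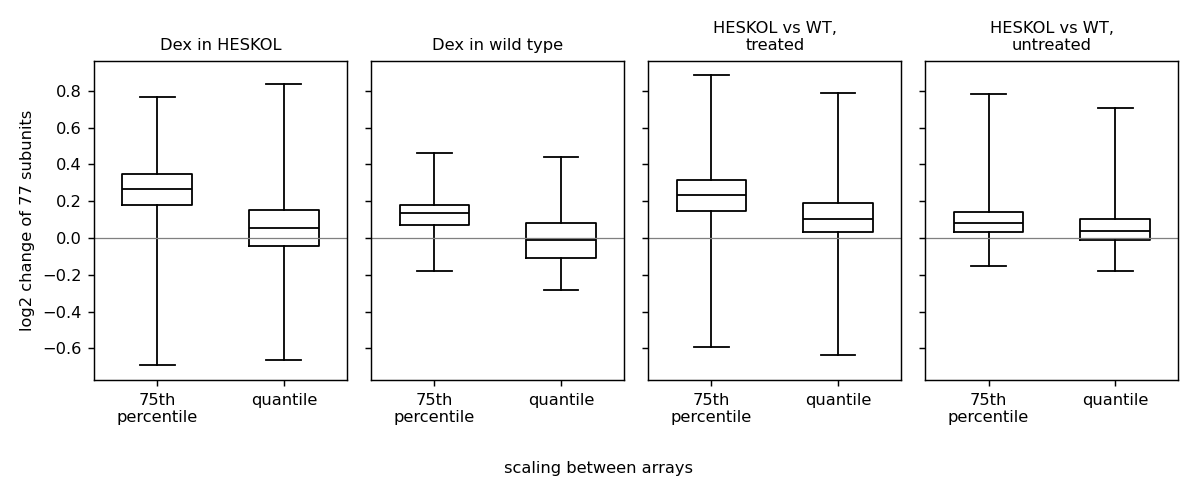
Log2 changes of the 77 tested subunits in 4 comparisons, after scaling to the 75th percentile (left box in each panel) and after quantile normalization (right box). Boxes give the quartiles and median, and whiskers reach the lowest and highest subunit. With 75th percentile scaling the highest is Cox8b for dexamethasone in HESKOL (0.77) and between the treated genotypes (0.88). That gene was well above background on only 9 arrays. Medians moved toward 0 in all 4 panels under quantile normalization.

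The comparison of genotypes asks whether HESKOL livers differed from wild-type livers within a treatment. After dexamethasone the median change of the 80 members was 0.23, or 0.11 after quantile normalization, and 0.44 (all genes 0.14) with slide as a block, which here sets the 3 treated HESKOL arrays of slide 3 against the 1 treated wild-type array on it. On the unscaled deposited table, where 2.09% of all genes passed, 1 member did, Dmac2l. All 3 treated HESKOL arrays lay above all 3 treated wild-type arrays for 5 members, Atp5pb, Cox7a2l, Dmac2l, Ndufa9 and Ndufs4, against 10.6% of all tested genes, and below them for Sdha alone, against 7.69%. Without treatment the median was 0.079, the changes ran from -0.15 to 0.78, and the arrays of 1 member, Cox6b2, lay wholly higher in HESKOL, against 4.15% of genes, and of 0 wholly lower, against 2.21%. The members with the smallest p there were Cox6a2 (0.78), Cox6b2 (0.33), Cox7a1 (0.48), Ndufa7 (0.27) and Ndufb8 (0.19). Within slide 1, which holds 1 untreated HESKOL array beside the 3 untreated wild-type arrays, the median was 0.068.

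Sdha had the lowest change among the members between the treated genotypes. It read 4.21, 3.56 and 3.73 in treated HESKOL livers, against 4.35, 4.40 and 4.53 in treated wild-type livers, so the groups did not overlap. The change was -0.59 (SE 0.24, limma adjusted p = 0.259), and -0.69 (SE 0.33) within slide 3. Its dimmer probe gave -0.26 (SE 0.33). A probe filed under a clone name in the design, which the reference table pairs with Sdha, gave 1.07 (SE 0.55), and the mean of all 3 probes was 0.075. The 2 probes filed as Sdha shared a sign, and whether the clone-named probe measures the same transcript was not settled. The other genes of complex II differed by 0.20 for Sdhb, 0.056 for Sdhc and 0.63 for Sdhd (SE 0.37, limma adjusted p = 0.436).

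Cox7a2l, counted here with complex IV, read 3.80, 4.14 and 3.88 in treated HESKOL livers, against 3.61, 3.46 and 3.49 in treated wild-type livers. The groups did not overlap, and the change was 0.42 (SE 0.20, limma adjusted p = 0.334), 0.44 (SE 0.30) within slide 3. Relative to the subunit median it was 0.10. In untreated livers the gene differed by -0.017 (SE 0.20) between genotypes.

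The 2 members with the smallest p-values encode no subunit. Emc8 read 1.59, 2.38 and 2.04 in treated HESKOL livers, against 0.55, 0.40 and 1.20 in untreated HESKOL livers, with no overlap. It read 0.65, 2.34 and 2.32 in treated wild-type livers, against 0.48, 0.38 and 1.22 in untreated wild-type livers, where treated replicate 1 lay among the untreated arrays. The changes were 1.29 (SE 0.45, limma adjusted p = 0.105) in HESKOL and 1.08 (SE 0.45, limma adjusted p = 0.385) in wild-type liver. Without wild-type dexamethasone replicate 1 they were 1.29 (limma adjusted p = 0.0206, with 14.9% of all genes called) and 1.64 (limma adjusted p = 0.0240, with 5.9% of all genes called), both past the threshold. That array bears on the HESKOL p only by way of the pooled variance and of which genes were tested. Fitted with the HESKOL groups alone, Emc8 also passed (limma adjusted p = 0.0399, with 11.4% of all genes called). A second probe of Emc8 gave 0.82 (SE 0.38) in HESKOL and 0.29 (SE 0.38) in wild-type liver. That probe did overlap in HESKOL liver, with -3.01 in treated replicate 1 and -2.97 in untreated replicate 3. With slide as a block the brighter probe gave 0.38 and 0.56 (SE 0.86 each). Cox4i1, whose name the older symbol of Emc8 borrows, differed by 0.33 and 0.20.

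Dmac2l read 0.95, 1.93 and 1.36 in treated HESKOL livers, against 0.85, 0.38 and -0.087 in treated wild-type livers, with no overlap. The change was 1.03 (SE 0.37, limma adjusted p = 0.212), and its second probe gave 1.03 (SE 0.41). That second probe overlapped, with -1.54 in treated HESKOL replicate 1 and -1.49 in treated wild-type replicate 1. The dexamethasone changes of the brighter probe were 0.57 (SE 0.37) in HESKOL and -0.34 (SE 0.37) in wild-type liver. Their difference was 0.91 (SE 0.53, limma adjusted p = 0.835). Ndufaf1 read 0.30 lower with dexamethasone in HESKOL liver (change -0.30, SE 0.24), opposite in sign to most subunits, and did not pass.

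**Figure D5:**
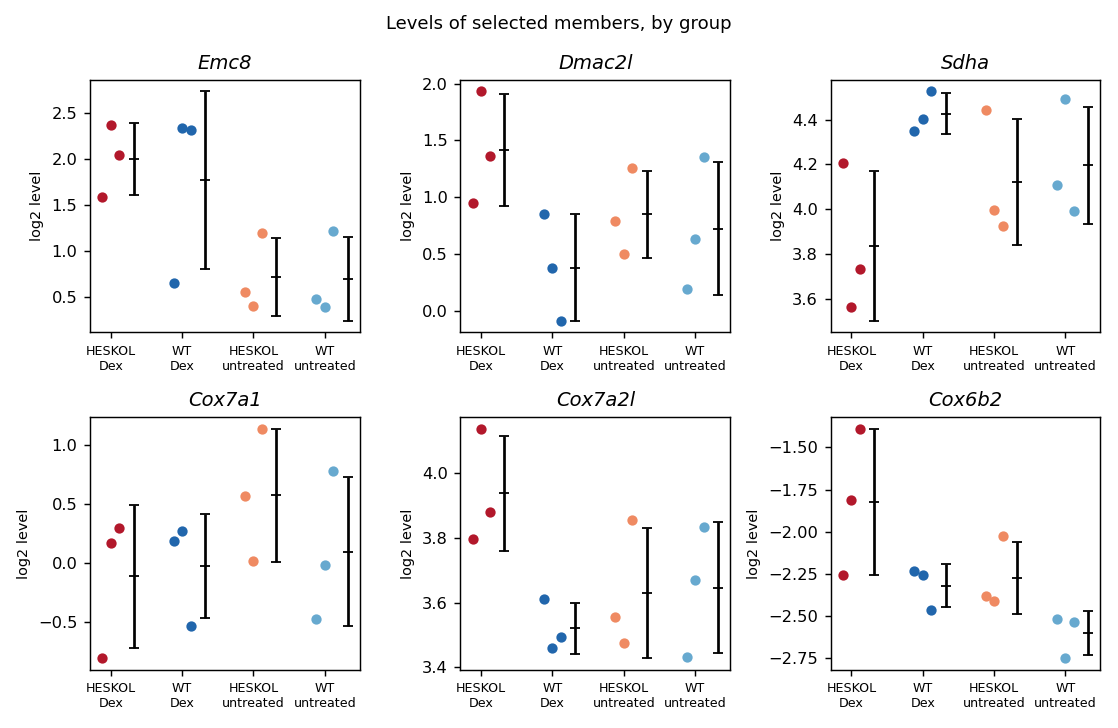
Log2 levels of 6 members on each array (points) by group, with group mean and SD (bars, n = 3). Emc8 is higher in treated than in untreated livers except in wild-type dexamethasone replicate 1, at 0.65. The brightest Sdha probe reads lower in treated HESKOL than in treated wild-type livers, a difference that did not pass.

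The dexamethasone effects of the genotypes share no arrays and were compared directly. Their difference had a median of 0.14 over the members (0.072 after quantile normalization), with 64 of 80 above 0, between -0.68 for Cox6a2 and 0.91 for Dmac2l. Because it combines 4 groups, its median SE was 0.51, and 9 of 80 intervals lay within a 2-fold difference either way. After quantile normalization the median SE was 0.34 and 51 of 80 intervals did.

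Other genes of mitochondrial respiration were followed as lists. Of 14 tested regulators of mitochondrial biogenesis, 1 rose and 0 fell with dexamethasone in HESKOL liver (median change 0.54), a share near the 7.87% of all tested genes: Ppargc1a, a coactivator known to act on subunit genes, by 3.39 (SE 0.33, limma adjusted p = 0.00101). It differed by 0.77 (SE 0.33, limma adjusted p = 0.402) in wild-type liver, where 0 of the 14 passed. It read 2.87, 3.41 and 2.78 in treated HESKOL livers, against -0.66, -0.63 and 0.16 in untreated HESKOL livers, and was also higher in treated HESKOL than in treated wild-type liver (2.98, SE 0.33, limma adjusted p = 0.0032). With slide as a block these values were 2.44 (SE 0.57, limma adjusted p = 0.517) and 2.44 (SE 0.43, limma adjusted p = 0.123), so neither call held. In that fit 0 of all tested genes passed for dexamethasone in HESKOL liver and 3 between the treated genotypes. The Ppargc1a relatives Pprc1 and Ppargc1b had changes of 1.31 (SE 0.42, limma adjusted p = 0.0819) and 1.38 (SE 0.51, limma adjusted p = 0.121) in HESKOL liver. Tfb1m, a mitochondrial rRNA methyltransferase, had 0.73. Of the factors named for the NRF1, GABP, YY1 and estrogen-related receptor motifs, Nrf1 had 0.54, Gabpa -0.019, Gabpb1 0.21, Yy1 -0.21, Esrra 0.64 and Esrrg -0.11, and 0 of the 6 passed. Of the 77 subunits, 0 passed in this comparison, their median change was 0.26 with 73 above 0, and 31 intervals lay within a 2-fold change. Any relation between Ppargc1a and the subunit values was not tested.

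Of 15 tested respiratory chain genes outside the rule, 1 rose and 0 fell with dexamethasone in HESKOL liver: Coq3, a methyltransferase of ubiquinone synthesis (1.01, SE 0.26, limma adjusted p = 0.0420), again near the 7.87% of all genes. With slide as a block Coq3 had 0.48 (SE 0.50, limma adjusted p = 0.891), and its call was lost, in a fit where 0 of all tested genes passed. Of 32 tested assembly factors and 9 tested carriers and uncoupling proteins, 0 passed in either direction, with median changes of 0.063 and 0.31. In wild-type liver 0 genes of these lists passed in either direction. Atpif1, which inhibits ATP hydrolysis by complex V, differed by -0.85 (SE 0.33, limma adjusted p = 0.136) in HESKOL and by -0.57 (SE 0.33, limma adjusted p = 0.533) in wild-type liver. Among immune markers, 1 of 9 macrophage and 1 of 9 lymphocyte markers fell with dexamethasone in HESKOL liver, where 7.87% of all genes passed in either direction. The mean lymphocyte marker level was -4.37 to -3.49 in treated and -2.78 to -2.32 in untreated HESKOL livers, that of macrophages 1.99 to 2.94 in treated and 2.78 to 3.59 in untreated, and their part in the members' values was not tested.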

How the data were processed

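Liver RNA of 12 samples, 3 in each of 4 groups taken from the sample titles, was measured from 500 ng of labelled RNA per array. The authors' deposited files hold intensity values that were written by Feature Extraction, version 9.5.3.1 per the file headers, for a design placed on mm7. The deposited series table holds the same processed signals, unscaled between arrays. Here log2 intensity was scaled to the 75th percentile of each array, outlier spots were left out and the brightest probe stood for its gene. Probes were renamed through RefSeq (GRCm38.p6), among members 99 probes by accession, 12 by symbol and 2 by synonym. Testing required the probe to exceed background in every array of some group. In R 4.3.3, limma 3.58.1 (lmFit, eBayes) fitted group means, leaving 8 residual degrees of freedom, to which the prior added 3.12, and p-values were adjusted over 18728 genes by Benjamini-Hochberg. The fit was tested on simulated data.

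The members, lists and named genes were chosen with earlier results of these data known. In each comparison the 5 members with the smallest p were named, with the subunits of complex II, core subunits, paired forms, Atpif1 and up to 4 genes of a list. Genes given as ends of a range, as not overlapping, for a low correlation, for a motif or as no subunit were singled out after their values were seen. The labels number replicates without saying that each is a separate mouse, so p-values measure only the spread between these samples. Alternatives were quantile, median and normexp scaling, the deposited table, other filters and probe rules, subunits alone, slide and replicate blocks, a variance trend, the compared groups alone, a threshold of 0.01 and each array left out. Scaling to the subunit median was added after seeing the data. The number of arrays limits the precision. Values of some single genes are not reported here.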

Additional observations from a re-analysis of the deposited data

How the results depend on the processing

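With every alternative, 0 or 1 of the 80 members was called in each comparison. The count was 1 in treated HESKOL against untreated HESKOL liver when only these groups were fitted (Emc8, limma adjusted p = 0.0399, with 11.4% of all genes called) and 1 between the treated genotypes on the unscaled deposited table (Dmac2l, 1.19, limma adjusted p = 0.0405, with 2.09% of all genes called). With an array left out, counts ran from 0 to 1 in both dexamethasone comparisons and stayed at 0 in the other 3. Of 644 refits of the 25 named results, 640 stayed on their side of the threshold and 11 changed sign below it.

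Median changes of the members with an array left out ran from -0.0060 to 0.56 for dexamethasone in HESKOL liver, from -0.10 to 0.41 in wild-type liver, from 0.079 to 0.43 between treated and from -0.20 to 0.37 between untreated genotypes, and from -0.16 to 0.45 for the difference of effects. The lowest difference of effects lacked untreated wild-type replicate 3. The lowest HESKOL value lacked untreated HESKOL replicate 2 and the highest untreated HESKOL replicate 3. The wild-type extremes lacked untreated wild-type replicates 1 and 3. With slide as a block the medians were 0.61 in HESKOL and 0.20 in wild-type liver. On the unscaled table, where all genes had a median of -0.35 in wild-type liver, the members had -0.19. This fixed slide block left 3 genes of all called between the treated genotypes and 0 in the other comparisons. It reaches both dexamethasone changes only by way of arrays of the other genotype. With slide as a random block 2395 of all genes were called for dexamethasone in HESKOL liver, against 1473 in the main fit. With the replicate block, which changed no call among members, the medians were 0.26 in HESKOL and 0.14 in wild-type liver, and 125 in place of 214 of all genes were called between the treated genotypes. The labels do not say whether same-numbered arrays were paired, and correlations of their deviations, from -0.40 to 0.62 with 6 of 18 above 0.1, cannot decide it. Changes under 2-fold were often below what 3 arrays a group could show.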
